A study of Mus musculus with 9 samples.

Results

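The acid-base and ammonia handling genes described here are 9 kidney genes: Slc4a4, Slc9a3, Glud1, Glul, Car2, Car4, Car12, Car14 and Car15. They were chosen by symbol, as the rows of the count tables whose Ensembl identifier carries one of these names in the GENCODE M21 annotation, and all 9 were found among the 29678 genes of each table. Bulk mRNA was sequenced from mouse kidney in 3 groups. The BHBNa_bIRI group was given the sodium salt of beta-hydroxybutyrate (BHB), a ketone body made by the liver during fasting, before bilateral ischemia-reperfusion injury (bIRI), in which the blood supply of both kidneys is interrupted and restored. The bIRI group had the same injury without BHB, and both were sampled 24 hours after reperfusion. The Sham group had the operation without ischemia, and its labels give no sampling time. The labels give no strain, age, sex or number of mice, no dose or route of BHB and no ischemia time, and no vehicle for the bIRI group. Each group has 3 deposited libraries. In the table labelled bIRI replicate 2, every one of the 29678 counts is the average of replicates 1 and 3 with any fraction dropped, so it was left out and bIRI has 2 libraries. The labels do not say that the libraries come from separate mice, so p-values measure only the spread between these libraries, which may be technical.

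The kidney holds blood pH steady by reclaiming filtered bicarbonate, secreting acid and making ammonia. In the proximal tubule, the sodium-proton exchanger NHE3 (gene Slc9a3) secretes protons, membrane-bound carbonic anhydrases split the resulting carbonic acid, the cytosolic carbonic anhydrase 2 (Car2) rebuilds bicarbonate in the cell, and the sodium bicarbonate cotransporter NBCe1 (Slc4a4) returns it to the blood. Glutamate dehydrogenase (Glud1) releases ammonium from glutamate in mitochondria, and glutamine synthetase (Glul) consumes ammonium to make glutamine.

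Promoter sequences from RefSeq (build GRCm38.p6) were matched by symbol for 8 of the 9 genes, 9 promoters in all, because Slc4a4 has 2 start sites 140706 bases apart. The promoters of Car4, Car12 and Car14, which fell after injury, and the downstream start of Slc4a4, from which the kidney form of the transporter is transcribed in human, are shown as the 250 bases before the start. Letters run 5′ to 3′ on the strand of the gene, and capitals mark CG pairs.

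Slc4a4 downstream start, chr5:89027716-89027965, plus strand: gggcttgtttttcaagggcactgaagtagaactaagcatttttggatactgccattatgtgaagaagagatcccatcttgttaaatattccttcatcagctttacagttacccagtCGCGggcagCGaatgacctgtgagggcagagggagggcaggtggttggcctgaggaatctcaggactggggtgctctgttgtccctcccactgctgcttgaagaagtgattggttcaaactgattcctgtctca

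Car4, chr11:84957504-84957753, plus strand: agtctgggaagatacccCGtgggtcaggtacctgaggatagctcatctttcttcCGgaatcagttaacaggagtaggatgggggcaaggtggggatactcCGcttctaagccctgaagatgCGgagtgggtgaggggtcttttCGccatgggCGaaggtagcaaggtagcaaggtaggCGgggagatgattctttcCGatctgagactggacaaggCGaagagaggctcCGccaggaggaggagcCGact

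Car12, chr9:66713436-66713685, plus strand: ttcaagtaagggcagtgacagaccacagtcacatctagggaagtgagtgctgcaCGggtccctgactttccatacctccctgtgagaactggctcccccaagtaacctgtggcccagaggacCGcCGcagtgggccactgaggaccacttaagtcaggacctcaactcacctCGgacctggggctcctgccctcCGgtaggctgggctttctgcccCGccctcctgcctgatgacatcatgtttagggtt

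Car14, chr3:95904686-95904935, minus strand: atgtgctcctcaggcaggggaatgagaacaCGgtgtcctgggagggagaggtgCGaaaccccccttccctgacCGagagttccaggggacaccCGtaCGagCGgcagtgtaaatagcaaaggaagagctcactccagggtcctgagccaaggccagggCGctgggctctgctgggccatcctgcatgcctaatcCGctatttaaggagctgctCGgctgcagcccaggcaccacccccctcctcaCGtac

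These 4 windows hold 3 CG pairs for the downstream start of Slc4a4, 11 for Car4, 6 for Car12 and 10 for Car14, against a median of 6 over 32851 RefSeq mouse promoters of the same length (quartiles 2 and 16). The upstream start of Slc4a4 holds 44, Glud1 46, Slc9a3 19, Glul 15 and Car15 4. Some of these windows run into exons that GENCODE M21 gives for other transcripts of the same gene: all 250 bases before the upstream start of Slc4a4, 178 of the 250 for Car15 and 6 for Car14. The 9 windows were searched on both strands for GTTAAT (part of the HNF1 site), AAAGTCC (a core of the HNF4 site) and TGACTCA (the AP-1 site), and none held any of them. Over all 32851 promoters, 6.43% hold the first, 3.58% the second and 4.46% the third. The absence of a match says only that these letters are not in these windows. The counts are per gene and do not separate the 2 starts of Slc4a4.

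Libraries held 44225882 to 45014455 counts in BHBNa_bIRI, 41204065 and 33477985 in bIRI replicates 1 and 3, and 43206974 to 45909063 in Sham. Levels are given as CPM (counts scaled to a library of fixed size) on library sizes scaled by TMM, and 3 counts correspond to 0.0646 to 0.0815 CPM. Mitochondrially encoded genes took 24.0 to 30.3% of counts in BHBNa_bIRI, 15.9% in both bIRI libraries and 11.2 to 13.3% in Sham. The 2 bIRI libraries stood apart from each other: 5 of the 9 genes differed by at least 1 between them on the log2(CPM + 0.5) scale, as did 21.6% of all 17967 genes tested. Markers of nephron segments and of neutrophils also differed by group. The summed level of 8 markers of the first proximal tubule segments was 1804 to 1964 CPM in BHBNa_bIRI, 1263 to 1542 CPM in bIRI and 11683 to 13395 CPM in Sham. All 8 were lower than Sham in both injured groups, beside 22.2% of all genes in BHBNa_bIRI and 16.2% in bIRI. The summed level of 6 markers of the last proximal segment was 1088 to 1314 CPM in BHBNa_bIRI, 1624 to 1873 CPM in bIRI and 6158 to 7638 CPM in Sham. Among these 6, 5 were lower than Sham in BHBNa_bIRI and 4 in bIRI. Markers of injured tubule summed to 15377 to 16992 CPM in BHBNa_bIRI, 16566 to 26445 CPM in bIRI and 570 to 696 CPM in Sham. The 5 neutrophil markers summed to 35.5 to 60.3 CPM in BHBNa_bIRI, 4.34 to 10.2 CPM in bIRI and 0.799 to 1.65 CPM in Sham. Of the 4 tested, 3 were higher in BHBNa_bIRI than in bIRI, beside 4.88% of all genes. In several alternative fits described below, among them without Sham replicate 1 or 2, no gene at all was called higher there. No marker on these lists was at 0. In bulk RNA, fewer cells of a type and less RNA per cell cannot be told apart, and the part of these markers in the results below was not tested.

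Of the 9 genes, 5 were lower and 0 higher in bIRI than in Sham at an adjusted p of 0.05 (edgeR quasi-likelihood test, Benjamini-Hochberg over 17967 genes). Of all genes tested, 16.2% were lower and 18.9% higher. The 5 were Car14, Car4, Slc4a4, Car12 and Glul, and the median log2 fold change of the 9 was -1.23, against 0.08 over all genes. In BHBNa_bIRI against Sham, 7 were lower and 0 higher, where 22.2% of all genes were lower and 21.3% higher, with a median of -1.23 against 0.04 over all genes. The additional 2 were Slc9a3 and Glud1. In BHBNa_bIRI against bIRI, 1 was lower, Slc9a3, and 0 were higher, where 8.65% of all genes were lower and 4.88% higher, with a median of -0.38 against -0.05. The 3 comparisons share libraries, so their values stand side by side and are not independent of each other.

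**Figure D1:**
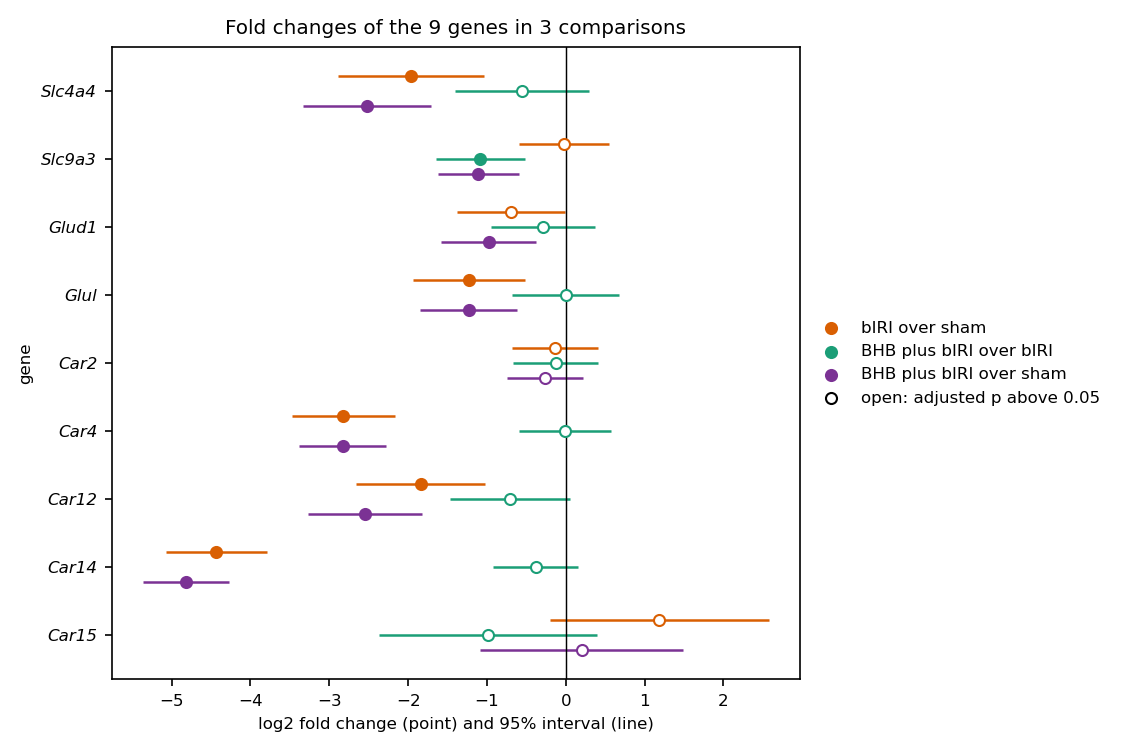
Log2 fold change (x axis) of each of the 9 genes (y axis) in the 3 comparisons, with bars for the 95% confidence interval of the edgeR fit; filled and open points show calls at the threshold and genes that missed it. Car14 lies farthest to the left against Sham in both injured groups, at -4.81 in BHBNa_bIRI and -4.44 in bIRI, and Slc9a3 is the one gene called in BHBNa_bIRI against bIRI.

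Slc4a4 (chromosome 5, 88886818 to 89239653, plus strand, GRCm38; protein-coding, as are all 9) encodes NBCe1, the basolateral exit path for reclaimed bicarbonate. It had 143, 125 and 75.8 CPM in the BHBNa_bIRI libraries, 234 and 104 CPM in the bIRI libraries, and 844, 573 and 559 CPM in the Sham libraries. Every injured library was below every Sham library, while the BHBNa_bIRI and bIRI ranges overlapped. Such full separation below Sham held for 6 of the 9 genes in bIRI, where 27.2% of all genes showed it, and for 7 of the 9 in BHBNa_bIRI, where 32.2% did. The level fell by 1.96 on the log2 scale in bIRI (SE 0.41, adjusted p = 0.00602), which is 3.90-fold lower than Sham, and by 2.52 in BHBNa_bIRI (SE 0.36, adjusted p = 0.000623), which is 5.74-fold lower. BHBNa_bIRI differed from bIRI by -0.56 (95% interval -1.41 to 0.29, adjusted p = 0.325). Both bIRI libraries were 2.26-fold apart, with replicate 1 the higher. Without replicate 1 the bIRI change against Sham was -2.74, and the difference of BHBNa_bIRI from bIRI turned to 0.20. A fit without 1 bIRI replicate, here and below, leaves a lone bIRI library that is assumed to vary like the other groups.

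Slc9a3 (chromosome 13, 74121457 to 74169442, plus strand) encodes NHE3, the apical sodium-proton exchanger of the proximal tubule and thick ascending limb. It had 54.7, 46.4 and 41.5 CPM in BHBNa_bIRI, 77.2 and 125 CPM in bIRI, and 125, 99.95 and 82.0 CPM in Sham. BHBNa_bIRI lay below both other groups with no overlap, and bIRI overlapped Sham. The level fell by 1.09 in BHBNa_bIRI against bIRI (SE 0.25, adjusted p = 0.0325), which is 2.12-fold lower, and by 1.11 against Sham (SE 0.23, adjusted p = 0.0043), which is 2.16-fold lower. In bIRI against Sham the log2 difference was -0.02 (95% interval -0.59 to 0.55, adjusted p = 0.957).

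The Slc9a3 call between BHBNa_bIRI and bIRI was lost in 11 of 20 alternative analyses. It was lost when only these 5 libraries entered the fit (adjusted p = 0.108), with length and GC offsets (-0.82, adjusted p = 0.0653), and without bIRI replicate 3 (-0.70, adjusted p = 0.0872). It was also lost without Sham replicate 1 (adjusted p = 0.0551) or 2 (0.0655) and without BHBNa_bIRI replicate 1 (0.105), 2 (0.0648) or 3 (0.119). Groups were fully separated and lower in BHBNa_bIRI for 23.8% of all genes in this comparison. Among 5 markers of the thick ascending limb, which also carries NHE3, the summed level was 907, 316 and 775 CPM in BHBNa_bIRI, 1544 and 4406 CPM in bIRI replicates 1 and 3, and 3475, 3722 and 2177 CPM in Sham. Its sodium-potassium-chloride cotransporter Slc12a1, which is 1 of these 5 markers and part of that sum, had 25.3, 17.8 and 21.3 CPM in BHBNa_bIRI. It had 33.1 and 1114 CPM in bIRI, and 503, 542 and 272 CPM in Sham. Both the segment markers and Slc9a3 were higher in bIRI replicate 3 than in bIRI replicate 1, and the part of these markers in the Slc9a3 result was not tested.

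**Figure D2:**
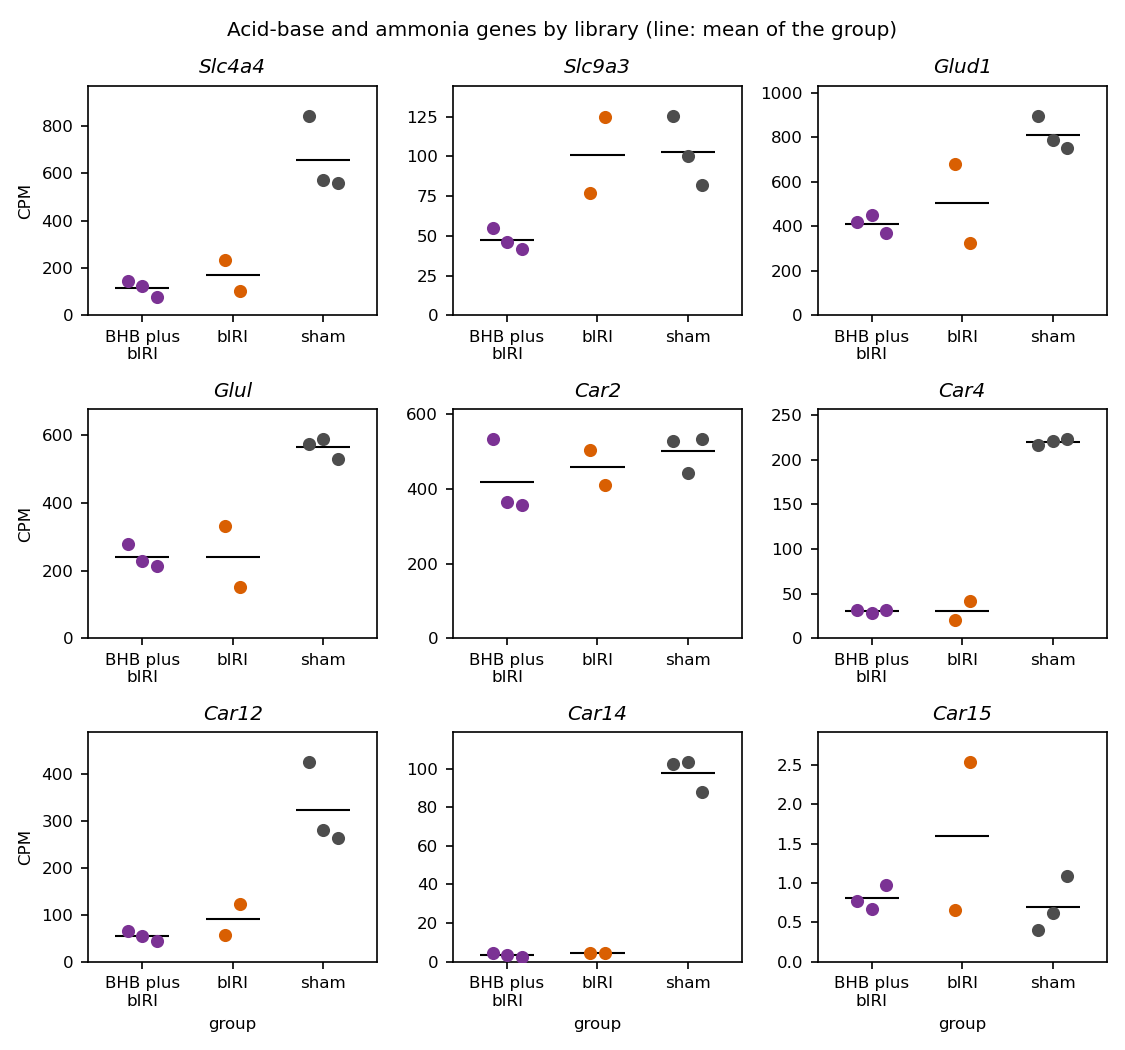
CPM per library (y axis, linear and from 0, with its own scale in each panel) of the 9 genes, with BHBNa_bIRI (named BHB plus bIRI), bIRI and Sham from left to right; points are libraries and lines are group means. Injured libraries sit below Sham for Slc4a4, Glud1, Glul, Car4, Car12 and Car14, and all groups overlap for Car2 and Car15.

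Glud1 (chromosome 14, 34310727 to 34345265, plus strand), which encodes the mitochondrial enzyme that frees ammonium from glutamate, had 419, 449 and 368 CPM in BHBNa_bIRI, 681 and 324 CPM in bIRI, and 895, 788 and 750 CPM in Sham. Injured libraries were all below Sham libraries, and the bIRI pair spanned the BHBNa_bIRI values. The BHBNa_bIRI level fell by 0.98 against Sham (SE 0.27, adjusted p = 0.0161), which is 1.97-fold lower. In bIRI against Sham the difference was -0.69 (95% interval -1.37 to -0.01, adjusted p = 0.105), and in BHBNa_bIRI against bIRI it was -0.29 (95% interval -0.95 to 0.38, adjusted p = 0.521). Without bIRI replicate 1, bIRI against Sham was -1.39. The BHBNa_bIRI call against Sham was lost in 6 of 20 alternatives. Among them were the fits without Sham replicate 1 (adjusted p = 0.0623), without BHBNa_bIRI replicate 1 (0.0513) or 3 (0.0629), and with length and GC offsets (-0.66, adjusted p = 0.0556).

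Glul (chromosome 1, 153899944 to 153909723, plus strand), whose enzyme glutamine synthetase takes up ammonium in the proximal tubule, had 277, 228 and 214 CPM in BHBNa_bIRI, 330 and 150 CPM in bIRI, and 573, 587 and 528 CPM in Sham. Every injured library was again below every Sham library. The level fell by 1.23 in bIRI (SE 0.32, adjusted p = 0.0153), 2.34-fold lower than Sham, and by 1.23 in BHBNa_bIRI (SE 0.28, adjusted p = 0.00628), 2.35-fold lower. BHBNa_bIRI averaged 240 ± 33.5 CPM (SD, n = 3) and bIRI 240 ± 127 CPM (SD, n = 2), a log2 difference whose 95% interval ran from -0.68 to 0.68 (adjusted p = 0.997). That difference depended on 1 library. Without bIRI replicate 1 it was 0.73, and without bIRI replicate 3 it was -0.47. The bIRI change against Sham was -1.98 without bIRI replicate 1 and -0.77 without bIRI replicate 3. When only the bIRI and Sham libraries entered the fit, its adjusted p was 0.0501.

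Within a library, Glul relative to Glud1 compares ammonium use with ammonium release at the RNA level and does not depend on library scaling. Per kilobase of exon, this ratio was 0.839, 0.642 and 0.737 in BHBNa_bIRI, 0.614 and 0.587 in bIRI, and 0.811, 0.944 and 0.891 in Sham. The bIRI libraries were below all others, and BHBNa_bIRI replicate 1 lay within the Sham range. The ratio of Slc4a4 to Slc9a3 per kilobase was 1.33, 1.37 and 0.930 in BHBNa_bIRI, 1.54 and 0.423 in bIRI, and 3.42, 2.92 and 3.47 in Sham, so all 5 injured libraries were below Sham.

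Car14 (chromosome 3, 95897768 to 95904691, minus strand) encodes a transmembrane carbonic anhydrase of proximal tubule membranes, and it changed most among the 9. It had 4.64, 3.27 and 2.50 CPM in BHBNa_bIRI, 4.51 and 4.54 CPM in bIRI, and 102, 103 and 88.1 CPM in Sham. Both injured groups overlapped each other and lay far below Sham. The level fell by 4.44 in bIRI (SE 0.29, adjusted p = 4.91e-05), which is 21.6-fold lower than Sham, and it fell by 4.81 in BHBNa_bIRI (SE 0.24, adjusted p = 1.15e-05), which is 28.1-fold lower. The difference between BHBNa_bIRI and bIRI was -0.38 (95% interval -0.92 to 0.16, adjusted p = 0.292). Its exons share 17.5% of their bases with Aph1a on the opposite strand, and reads there cannot be told apart without the strand setting of the counting, which is not given in the sources used here. Aph1a had 58.0, 54.1 and 66.0 CPM in BHBNa_bIRI, 62.1 and 33.0 CPM in bIRI, and 134, 109 and 116 CPM in Sham, and its part in the Car14 values was not tested.

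Car4 (chromosome 11, 84957786 to 84966044, plus strand) encodes a carbonic anhydrase held on the proximal tubule surface by a lipid anchor. Its level was 31.9, 28.6 and 32.1 CPM in BHBNa_bIRI, 20.6 and 41.6 CPM in bIRI, and 216, 220 and 223 CPM in Sham. The 3 BHBNa_bIRI values lay between the 2 bIRI values, and all 5 were far below the narrow Sham range. It fell by 2.82 in bIRI (SE 0.29, adjusted p = 0.000208), 7.07-fold lower than Sham, and by 2.83 in BHBNa_bIRI (SE 0.25, adjusted p = 4.52e-05), 7.12-fold lower. BHBNa_bIRI averaged 30.9 ± 1.97 CPM (SD, n = 3) and bIRI 31.1 ± 14.8 CPM (SD, n = 2), with a 95% interval of the log2 difference from -0.59 to 0.57. Without bIRI replicate 3 the bIRI change against Sham was -3.41 and the difference of BHBNa_bIRI from bIRI was 0.58 (adjusted p = 0.0708).

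Car12 (chromosome 9, 66713686 to 66766845, plus strand) encodes a transmembrane carbonic anhydrase with an outward-facing active site. It had 66.3, 55.5 and 44.6 CPM in BHBNa_bIRI, 57.0 and 124 CPM in bIRI, and 426, 280 and 264 CPM in Sham. All injured libraries were below Sham, and the lower bIRI library lay within the BHBNa_bIRI range. The level fell by 1.84 in bIRI (SE 0.37, adjusted p = 0.00472), 3.58-fold lower than Sham, and it fell by 2.54 in BHBNa_bIRI (SE 0.32, adjusted p = 0.000335), 5.83-fold lower. BHBNa_bIRI differed from bIRI by -0.70 (95% interval -1.46 to 0.06, adjusted p = 0.172). The bIRI change against Sham was -2.51 without bIRI replicate 3. Without bIRI replicate 1 the difference of BHBNa_bIRI from bIRI was -1.10.

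Car2 (chromosome 3, 14886273 to 14900770, plus strand), the cytosolic enzyme of proximal tubule and intercalated cells, missed the threshold in all 3 comparisons. It had 533, 366 and 356 CPM in BHBNa_bIRI, 503 and 411 CPM in bIRI, and 529, 442 and 533 CPM in Sham. The groups overlapped throughout. The log2 difference was -0.13 in bIRI against Sham (95% interval -0.68 to 0.41, adjusted p = 0.707), -0.26 in BHBNa_bIRI against Sham (-0.75 to 0.22, adjusted p = 0.353) and -0.13 in BHBNa_bIRI against bIRI (-0.67 to 0.41, adjusted p = 0.737). With length and GC offsets the value in bIRI against Sham turned to 0.17.

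Car15 (chromosome 16, 17835276 to 17838364, minus strand), a lipid-anchored carbonic anhydrase of mouse, was near the low end of detection. It had 0.769, 0.667 and 0.978 CPM in BHBNa_bIRI, 0.657 and 2.53 CPM in bIRI, and 0.398, 0.616 and 1.09 CPM in Sham. The groups overlapped, and bIRI replicate 3 stood above the other libraries. The difference was 1.19 in bIRI against Sham (95% interval -0.20 to 2.57, adjusted p = 0.164) and -0.99 in BHBNa_bIRI against bIRI (-2.37 to 0.40, adjusted p = 0.284). Without bIRI replicate 1, bIRI against Sham was 1.78, while without bIRI replicate 3 it was -0.086. BHBNa_bIRI against bIRI was -1.60 without bIRI replicate 1 and 0.28 without bIRI replicate 3. Of its exon bases, 65.7% are shared with Gm20518 on the same strand, whose level was 1.00, 1.33 and 0.924 CPM in BHBNa_bIRI, 1.07 and 5.02 CPM in bIRI, and 0.472, 0.365 and 0.517 CPM in Sham. How the counting treated reads in the shared bases is not given in the sources used here, so the Car15 values are uncertain.

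**Figure D3:**
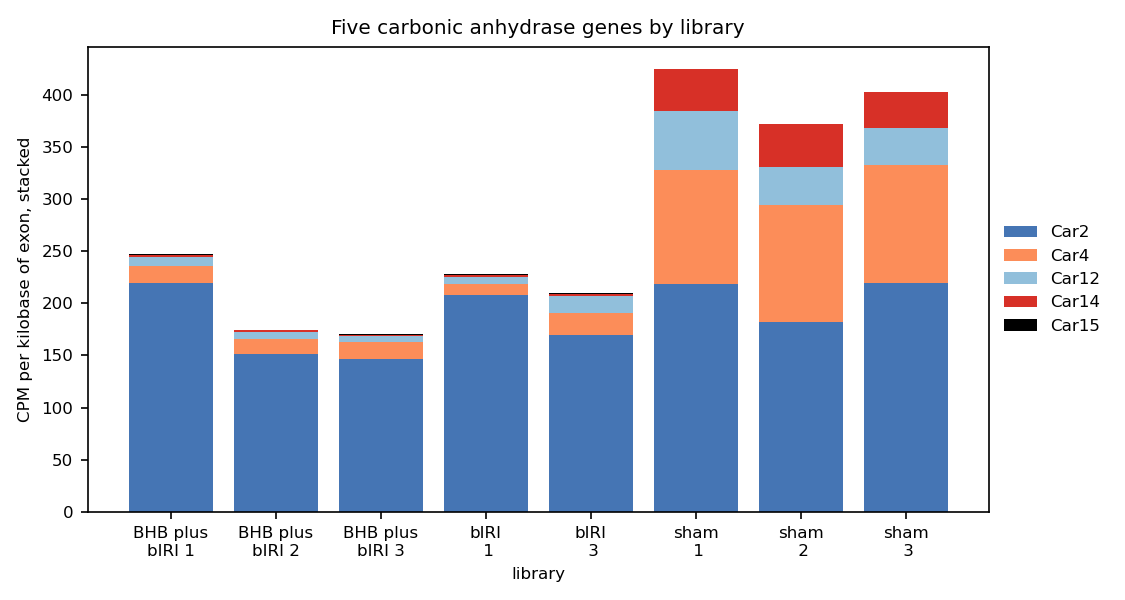
CPM per kilobase of exon (y axis) of the 5 carbonic anhydrase genes, stacked for each library, with BHBNa_bIRI, bIRI and Sham from left to right. The stack is lower in the 5 injured libraries (171 to 247) than in the 3 Sham libraries (372 to 425), and Car2 makes up most of it in the injured ones.

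Among these 5 genes, the balance of the cytosolic and membrane-bound enzymes differed. The summed level of the 5 was 247, 175 and 171 CPM per kilobase in BHBNa_bIRI, 228 and 210 in bIRI, and 425, 372 and 403 in Sham. Car2 made up 89.0, 86.5 and 86.1% of that sum in BHBNa_bIRI, 91.2 and 80.7% in bIRI, and 51.4, 49.0 and 54.5% in Sham. The share of Car4 was 6.56, 8.33 and 9.59% in BHBNa_bIRI, 4.60 and 10.05% in bIRI, and 25.9, 30.1 and 28.1% in Sham. These shares are of RNA within a library and show unequal change, not which enzyme changed.

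The order of the 9 levels, per kilobase of exon, also differed between groups. The length is that of all annotated exons of a gene merged. It was 7597 bases for Car12 and 5504 for Slc9a3, against 3716 and 5118 in the longest coding transcript. The order, like the shares above, depends on this choice, and no other length was tried. In BHBNa_bIRI, Car2 led at 173 ± 41.1 CPM per kilobase (SD, n = 3), followed by Glud1 at 97.8, Glul at 72.1, Car4 at 15.7, Slc4a4 at 10.6, Slc9a3 at 8.63, Car12 at 7.30, Car14 at 1.36 and Car15 at 0.422. The neighbours Slc4a4, Slc9a3 and Car12 overlapped in range there. In bIRI, Car2 was at 189, Glud1 at 119, Glul at 72.2, Slc9a3 at 18.3, Car4 at 15.8, Slc4a4 at 15.6, Car12 at 11.9, Car14 at 1.78 and Car15 at 0.836, with overlap between Glud1 and Glul and among the 4 genes from Slc9a3 to Car12. In Sham, Car2 was at 207 and Glud1 at 193 with overlapping ranges, followed by Glul at 169, Car4 at 112, Slc4a4 at 60.9, Car12 at 42.6, Car14 at 38.5, Slc9a3 at 18.6 and Car15 at 0.367. Slc4a4 overlapped Car12, and Car12 overlapped Car14.

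**Figure D4:**
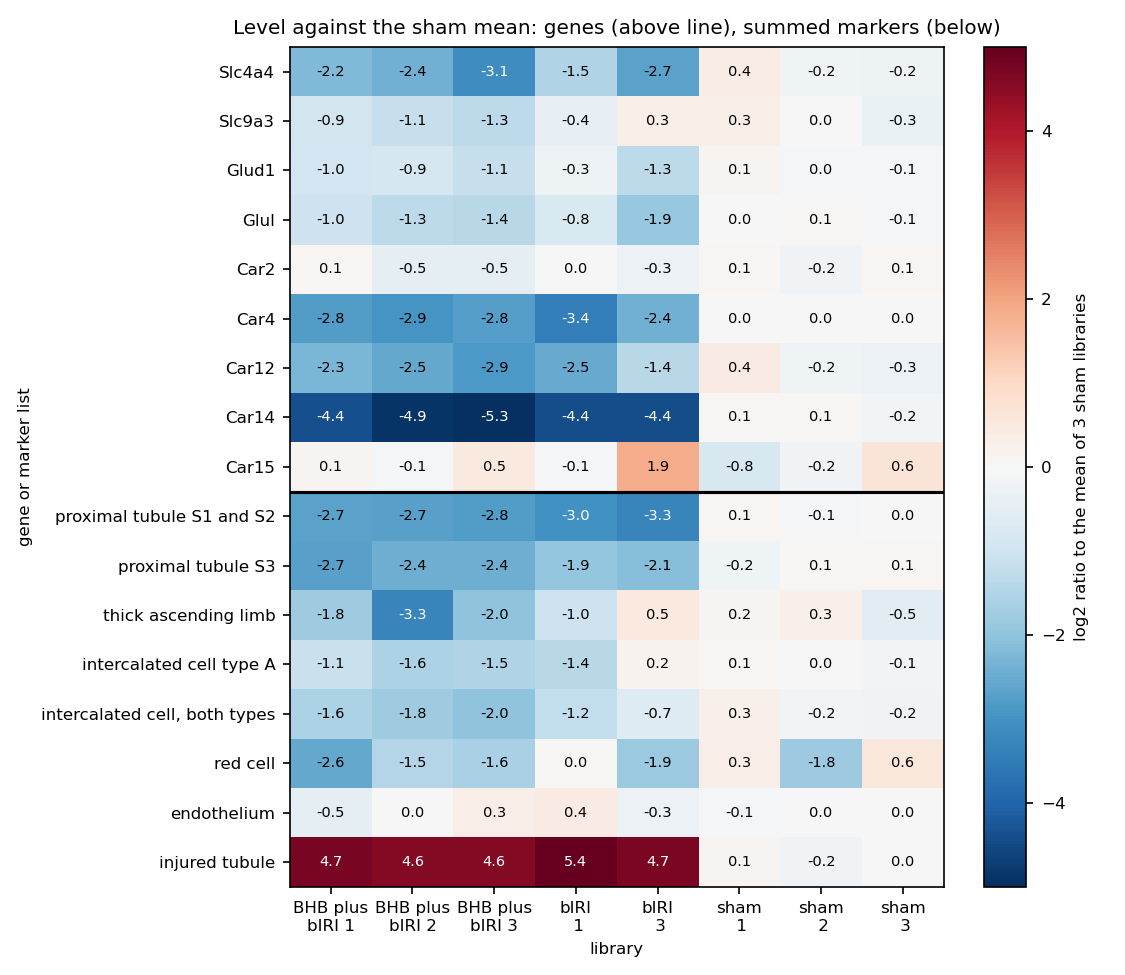
Log2 ratio of each library (columns) to the mean of the 3 Sham libraries, as colour and number, for the 9 genes (rows above the line) and the summed CPM of cell type marker lists (rows below it). Car14 is the darkest gene row in the injured libraries, and the rows for proximal tubule markers are below Sham in all 5 of them.

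The spread between the 2 bIRI libraries ran in both directions. Replicate 1 was 2.26-fold above replicate 3 for Slc4a4, 2.10-fold for Glud1 and 2.20-fold for Glul. Replicate 3 was 2.02-fold above replicate 1 for Car4, 2.17-fold for Car12, 3.85-fold for Car15 and 1.62-fold for Slc9a3. Car14 was 1.01-fold and Car2 1.22-fold apart. Within BHBNa_bIRI the highest library was 1.12-fold (Car4) to 1.89-fold (Slc4a4) above the lowest, and within Sham 1.03-fold (Car4) to 2.73-fold (Car15).

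Patterns over the 8 libraries were compared by the root mean square difference of log2(CPM + 0.5), each gene centred on its mean, among 10458 protein-coding genes. Within the 9, Glud1 and Glul were the nearest pair, at 0.242. Slc4a4 lay nearest to Dnajc6 (0.155) and Lpar3 (0.193), Slc9a3 to Deptor (0.089) and Pigb (0.111), Glud1 to Minpp1 (0.0869) and Acsf2 (0.108), and Glul to Slc25a34 (0.108) and Tmem56 (0.119). Car2 lay nearest to Trappc13 (0.0797) and Foxi1 (0.117), and Foxi1 is known as a transcription factor of intercalated cells. The Car2 pattern was nearly flat, with a root mean square of 0.229 around its own mean. The median candidate gene lay 0.477 from it, so a small distance to Car2 says little. Car4 lay nearest to Cubn and Gstm7 (0.185 each), and Cubn encodes cubilin, a protein receptor of the proximal tubule. Car12 lay nearest to Sfxn2 (0.178) and Pdzd2 (0.203), Car14 to Slc22a22 (0.152) and G6pc (0.300), and Car15 to Zfp326 (0.221) and Gabbr1 (0.224). These distances describe 8 libraries and carry no test.

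Other genes of the same pathways, from lists of transporters, enzymes and pumps, were counted in the same fit. Of all genes tested, 16.2% were lower and 18.9% higher in bIRI against Sham, and 22.2% and 21.3% in BHBNa_bIRI against Sham. For glutamine uptake and ammonia, 10 of 11 listed genes were tested. In bIRI against Sham, 6 were lower and 1 higher. Slc38a3, the proximal tubule glutamine importer, had 44.6 to 74.1 CPM in bIRI and 253 to 328 CPM in Sham (log2 fold change -2.26, SE 0.42, adjusted p = 0.00348). Pck1, which uses the carbon skeleton left after ammonium release to make glucose, changed by -2.03 (SE 0.37, adjusted p = 0.0032). Slc6a19, the apical neutral amino acid transporter, changed by -2.29 (adjusted p = 0.0336), a call lost in 8 of 20 alternatives, among them without any 1 Sham replicate (adjusted p = 0.0593 to 0.0845), without BHBNa_bIRI replicate 2 (0.055), and without bIRI replicate 3, where it was -1.48 (0.0769). Without bIRI replicate 1 it was -4.33. Slc7a8, a basolateral amino acid exchanger, changed by -1.93 (adjusted p = 0.00124). In BHBNa_bIRI against Sham, 7 were lower, among them Slc12a1 at -4.35, Slc38a3 at -2.70, Pck1 at -2.56 and Slc6a19 at -2.33, and 1 was higher. Slc6a19 missed the threshold there in 2 of 20 alternatives, among them without BHBNa_bIRI replicate 3 (-2.02, adjusted p = 0.0567). Rhcg, an ammonia channel of the collecting duct, changed by -1.20 in BHBNa_bIRI against Sham (adjusted p = 0.0325). This call was lost in 8 of 20 alternatives, among them without any 1 Sham or BHBNa_bIRI replicate (adjusted p = 0.0628 to 0.113). In bIRI it had 29.9 CPM in replicate 1 and 110 CPM in replicate 3, against 133 to 153 CPM in Sham, a log2 fold change of -1.01 (adjusted p = 0.107). That value was -0.42 without bIRI replicate 1 and -2.23 without bIRI replicate 3.

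For sodium-proton exchangers and the scaffolds that hold NHE3 at the membrane, 13 of 13 were tested. In bIRI against Sham 5 were lower and 1 higher, beside 16.2% and 18.9% of all genes. Pdzk1, a scaffold of the proximal tubule brush border, had 39.3 to 109 CPM in bIRI and 389 to 557 CPM in Sham (-2.69, adjusted p = 0.0014). The related scaffolds Pdzd3 and Slc9a3r1 changed by -2.04 (adjusted p = 7.13e-05) and -1.33 (adjusted p = 0.00405), and the exchanger Slc9a8 by -1.80 (adjusted p = 0.000525). Slc9a2, which encodes the exchanger NHE2, had 18.4 to 23.1 CPM in BHBNa_bIRI, 20.7 and 29.7 CPM in bIRI, and 66.6 to 95.3 CPM in Sham, and was lower than Sham in both (-1.90, adjusted p = 0.00015, in BHBNa_bIRI and -1.61, adjusted p = 0.00108, in bIRI). In BHBNa_bIRI against Sham, 6 were lower and 3 higher, beside 22.2% and 21.3% of all genes. Pdzk1 was at 19.7 to 28.5 CPM there (-4.33, adjusted p = 4.97e-05), Slc9a4 was higher by 2.14 and Slc9a5 by 2.04. Slc9a3r1 changed by -0.70 (adjusted p = 0.0285), a call lost in 8 of 20 alternatives, among them without any 1 Sham or BHBNa_bIRI replicate (adjusted p = 0.0541 to 0.101).

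For 11 tested bicarbonate and anion transporters, 2 were lower and 2 higher in bIRI against Sham, close to the 16.2% and 18.9% of all genes. Slc26a4, which encodes pendrin, the chloride-bicarbonate exchanger of type B intercalated cells, had 31.2 to 33.1 CPM in bIRI and 82.9 to 104 CPM in Sham (-1.53, adjusted p = 0.000724). Slc26a6 changed by -1.47 (adjusted p = 0.00231) and Slc4a7, a sodium bicarbonate cotransporter, by 1.38 (adjusted p = 0.00998). The Slc4a7 value was 0.87 without bIRI replicate 3 (adjusted p = 0.0451) and 0.70 with length and GC offsets (0.042), and its call was lost with the replicate block and offsets together (0.79, adjusted p = 0.0555). Slc4a8 changed by 1.22 (adjusted p = 0.0311), a call lost in 9 of 20 alternatives, among them without any 1 Sham replicate (adjusted p = 0.0555 to 0.102), without BHBNa_bIRI replicate 3 (0.0501), and without bIRI replicate 3, where it was 0.37 (0.35). In BHBNa_bIRI against Sham, 3 were lower and 1 higher, beside 22.2% and 21.3% of all genes. Slc26a4 changed by -1.86 there (adjusted p = 8.1e-05). The call of Slc4a5, a further sodium bicarbonate cotransporter (-1.95, adjusted p = 0.04), was lost in 11 of 20 alternatives, among them without any 1 Sham or BHBNa_bIRI replicate (adjusted p = 0.0736 to 0.12). The call of Slc4a3, an anion exchanger (1.23, adjusted p = 0.0192), was lost in 5, among them without Sham replicate 1 (0.079) or 2 (0.0582) and without BHBNa_bIRI replicate 2 (0.0526) or 3 (0.0523). Slc4a1, the basolateral anion exchanger of type A intercalated cells and also of red cells, had 2.80 to 6.81 CPM in BHBNa_bIRI and 80.5 to 112 CPM in Sham (-4.23, adjusted p = 0.00776), while bIRI had 1.44 CPM in replicate 1 and 62.1 CPM in replicate 3. The summed level of 6 red cell markers was 24.9 to 53.2 CPM in BHBNa_bIRI, 40.4 to 152 CPM in bIRI and 42.2 to 217 CPM in Sham, and their part in the Slc4a1 values was not tested.

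Of 7 proton pump subunits of intercalated cells, 3 were lower and 2 higher in bIRI against Sham, beside 16.2% and 18.9% of all genes. In BHBNa_bIRI against Sham, 4 were lower and 0 higher, beside 22.2% and 21.3% of all genes. Atp6v0a4, a membrane subunit of the proton pump, had 60.7 to 81.4 CPM in BHBNa_bIRI, 128 to 139 CPM in bIRI and 264 to 393 CPM in Sham, with log2 fold changes against Sham of -2.11 in BHBNa_bIRI (adjusted p = 9.08e-05) and -1.22 in bIRI (adjusted p = 0.00418). Atp4a, the catalytic subunit of the gastric-type proton pump, changed by -3.93 in BHBNa_bIRI (adjusted p = 0.000405) and -2.56 in bIRI (adjusted p = 0.0077). Both bIRI libraries differed, at 2.52 CPM in replicate 1 and 12.3 CPM in replicate 3, and the bIRI value was -4.12 without replicate 3 and -1.90 without replicate 1. With no filter on low counts the bIRI call was lost (adjusted p = 0.0516). Atp6v1b1, the pump subunit of intercalated cells that is mutated in human distal renal tubular acidosis, had 24.7, 20.1 and 17.7 CPM in BHBNa_bIRI, 16.4 and 99.7 CPM in bIRI, and 80.6, 70.8 and 73.5 CPM in Sham. It was lower in BHBNa_bIRI than in Sham (-1.85, adjusted p = 0.015), and in bIRI against Sham it differed by -0.37 (0.636). The BHBNa_bIRI call was lost in 4 of 20 alternatives, among them without BHBNa_bIRI replicate 2 (0.0534) or 3 (0.0644). The subunit Atp6v1c2 changed by -1.27 in BHBNa_bIRI (adjusted p = 0.00849) and -1.23 in bIRI (0.0224), where it was -0.78 without bIRI replicate 1 and -2.06 without bIRI replicate 3, and where the call was lost in 6 alternatives, among them without Sham replicate 1 (0.0553) or 3 (0.0642) and with length and GC offsets (-0.77, 0.171). The subunit Atp6v1g3 changed by 0.95 in bIRI (adjusted p = 0.0433), a call lost in 9 alternatives, among them without bIRI replicate 3 (0.46, 0.286), Sham replicate 1 (0.131) or 2 (0.127) or BHBNa_bIRI replicate 2 (0.0636). The summed level of 5 markers of type A intercalated cells, of which Atp6v1g3 and Atp6v0d2 are pump subunits themselves, was 85.8 to 118 CPM in BHBNa_bIRI, 99.1 and 288 CPM in bIRI replicates 1 and 3, and 234 to 274 CPM in Sham, and their part in the pump values was not tested.

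Of 8 tested carbonic anhydrases outside the 9, 2 were higher and 3 lower in bIRI against Sham, beside 18.9% and 16.2% of all genes. In BHBNa_bIRI against Sham, 1 was higher and 3 lower, beside 21.3% and 22.2% of all genes. Car3, a cytosolic enzyme known mostly from muscle and fat, had 0.839, 14.5 and 1.09 CPM in BHBNa_bIRI, 1.51 and 4.43 CPM in bIRI, and 117, 70.0 and 68.1 CPM in Sham. The log2 fold change was -3.95 in BHBNa_bIRI (adjusted p = 0.0101) and -4.84 in bIRI (adjusted p = 0.0142). Both calls were lost without bIRI replicate 1 (adjusted p = 0.0643 in BHBNa_bIRI and 0.178 in bIRI), without bIRI replicate 3 (0.061 and 0.142) and with no filter (0.0875 and 0.104), and the BHBNa_bIRI call also when only the compared groups entered the fit (0.0562). Without BHBNa_bIRI replicate 2 the BHBNa_bIRI value was -6.46. Car5a, a mitochondrial enzyme, had 5, 2 and 3 counts in BHBNa_bIRI, which is near the 3-count limit, 4 and 41 counts in bIRI, and 91, 85 and 76 counts in Sham, and was lower in BHBNa_bIRI than in Sham (-4.64, adjusted p = 0.00164). Car9, a transmembrane enzyme, changed by -1.69 in BHBNa_bIRI (adjusted p = 0.00344) and -1.39 in bIRI (0.0199). The bIRI call was lost in 6 of 20 alternatives, among them without Sham replicate 1 (0.0583) or 2 (0.0639). Without bIRI replicate 3 the bIRI value was -1.08. Car7, a cytosolic enzyme, changed by -1.18 in bIRI (adjusted p = 0.0233). This call was lost in 7 of 20 alternatives, among them without any 1 Sham replicate (0.0573 to 0.0635) and with length and GC offsets (-0.80, 0.0954). Car13, a cytosolic enzyme, was higher by 1.95 in bIRI (adjusted p = 0.00247) and by 2.70 in BHBNa_bIRI (adjusted p = 0.000247).

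Of 5 tested proton and bicarbonate sensors, 1 was higher and 0 lower in bIRI against Sham, beside 18.9% and 16.2% of all genes. In BHBNa_bIRI against Sham, 1 was higher and 2 lower, beside 21.3% and 22.2% of all genes. The proton-sensing receptor Gpr4 was higher by 1.60 in bIRI (adjusted p = 0.0132) and by 1.75 in BHBNa_bIRI (adjusted p = 0.00488). The bIRI call was lost without Sham replicate 1 (adjusted p = 0.052), Sham replicate 3 (0.0511) or bIRI replicate 1 (1.00, adjusted p = 0.0647). Gpr4 is known from endothelium, whose 6 markers summed to 403 to 694 CPM in BHBNa_bIRI, 448 to 740 CPM in bIRI and 525 to 566 CPM in Sham. Insrr, the alkali-sensing receptor related to the insulin receptor, had 7.30, 5.47 and 6.71 CPM in BHBNa_bIRI, 2.04 and 21.7 CPM in bIRI, and 33.8, 27.0 and 30.0 CPM in Sham. It was lower in BHBNa_bIRI than in Sham (-2.22, adjusted p = 0.0176), a call lost without Sham replicate 1 (0.0522), without any 1 BHBNa_bIRI replicate (0.0516 to 0.0661) and with no filter (0.108). The tyrosine kinase Ptk2b changed by -0.63 there (adjusted p = 0.0344), a call lost in 8 of 20 alternatives, among them without Sham replicate 1 (0.126) or 2 (0.091) and without any 1 BHBNa_bIRI replicate (0.0751 to 0.101).

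In BHBNa_bIRI against bIRI, 7 genes of these lists were called, where 8.65% of all genes were lower and 4.88% higher. The lists held 10, 13, 11, 7, 8 and 5 tested genes, in the order given above. Slc26a6 was higher (1.09), and Slc12a1 (-4.74), Slc26a7 (-2.88), Pdzk1 (-1.65), Slc4a7 (-1.55), Atp6v0a4 (-0.89) and Atp6v0d2 (-0.89) were lower. None of the 7 kept its call when only the compared groups entered the fit, with the length and GC offsets, or without Sham replicate 1, Sham replicate 2, BHBNa_bIRI replicate 1 or BHBNa_bIRI replicate 3. Without bIRI replicate 3, 1 of the 7, Slc26a6, kept it, and the log2 fold change was -0.63 for Slc12a1, -0.54 for Slc26a7 and -0.73 for Pdzk1.

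**Figure D5:**
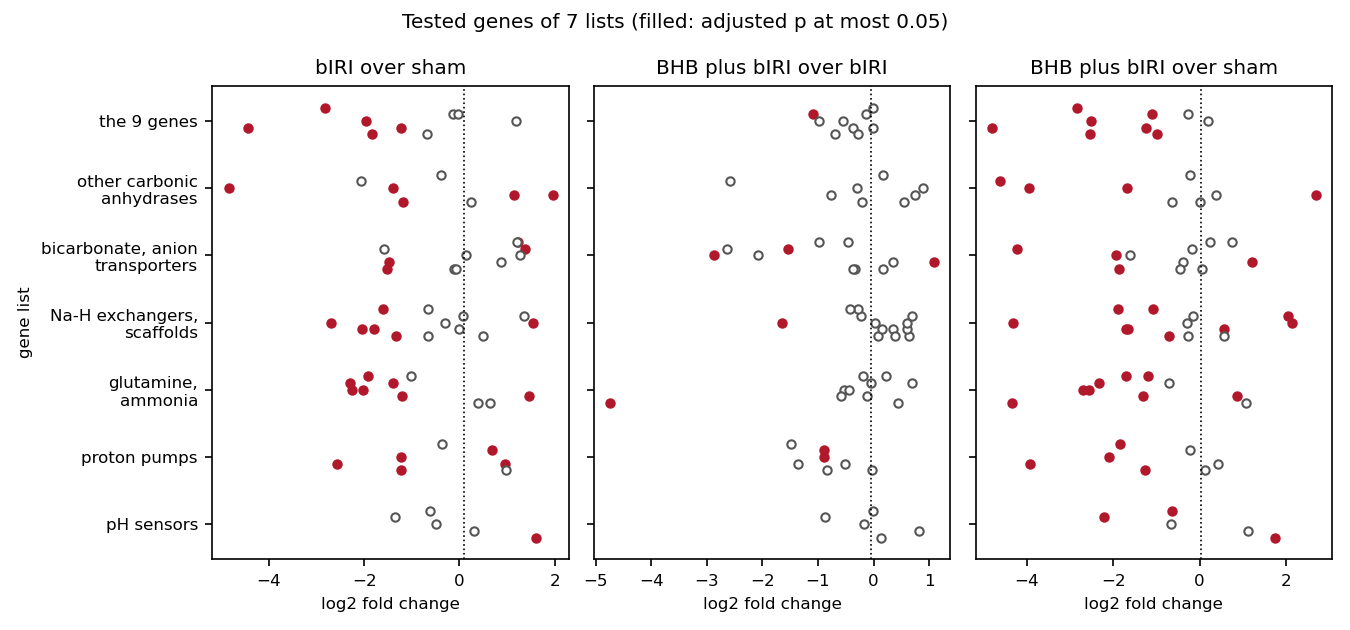
Log2 fold change (x axis) of every tested gene of the pathway lists (rows), as points, in the 3 comparisons, with called genes filled and a dotted line at the median of all genes tested. Most called genes against Sham lie below 0 in the lists for ammonia and for sodium-proton exchange, and few genes are called in BHBNa_bIRI against bIRI.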

How the data were processed

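Poly(A) RNA of mouse kidney was sequenced as paired-end libraries, per the labels' protocols. The deposited tables hold raw counts per Ensembl gene. The submitters' processing notes name HISAT2, featureCounts, Subread and DESeq2 and the build mm10; versions, annotation and strand setting are not given in the sources used here. Symbols and coordinates came from GENCODE M21, and promoters from RefSeq.

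The 9 genes, the pathway lists and the marker lists were chosen with earlier results of these data known; 1 listed gene is not reported here. All 9 genes and, in each list and comparison, the called genes with the largest changes (at most 4) and direct partners of the 9 were named. The 8 libraries were fitted together in edgeR 4.0.16 (R 4.3.3, limma 3.58.1) with TMM factors, filterByExpr (17967 genes kept, all 9 included), robust quasi-likelihood dispersion, 1 mean per group and 5 residual degrees of freedom. Tests were two-sided, with Benjamini-Hochberg adjustment over all genes and a threshold of 0.05. The fit was tested on counts simulated from its own dispersions with few changed genes, which checks its running and not whether its assumptions hold here. CPM, counts per library of fixed size, used TMM-scaled totals. Counting intervals and floors cover counting error only.

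Alternatives were DESeq2 1.42.0, upper-quartile or RLE factors, factors computed after removing mitochondrial transcripts and the 20 most abundant genes, no filter, a filter of 1 CPM in 3 libraries, the compared groups alone, a replicate block, offsets for transcript length and GC content, both together, a test against a 1.5-fold change, all 9 tables, and leaving out each library. The setting with all 9 tables takes the averaged bIRI replicate 2 as a library, which understates the spread, so calls kept there add no support. Replicate numbers are shared between groups. Deviations from the group mean correlated at -0.289 to 0.116 between same-numbered libraries and at -0.243 to 0.289 between others. The 2 bIRI libraries deviate by equal and opposite amounts, so these values cannot decide whether the numbers pair libraries.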

Additional observations from a re-analysis of the deposited data

How the results depend on the processing

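Counts of called genes among the 9 depended on the setting mainly in BHBNa_bIRI against bIRI. The 1 lower call there, Slc9a3, became 0 with the compared groups only, with the length and GC offsets, and in the test against 1.5-fold. Leaving out 1 Sham or BHBNa_bIRI library gave 0 to 1 lower and 0 higher in BHBNa_bIRI against bIRI. It gave 0 higher and 5 lower in bIRI against Sham. Fits without 1 bIRI library rest on a lone bIRI library, and their counts among the 9 are left out. In the other settings, 4 to 6 were lower in bIRI and 6 to 7 in BHBNa_bIRI than in Sham, and the calls of Car4, Car12, Car14 and Slc4a4 against Sham held in 20 of 20 alternatives in both comparisons. Over all genes, the fit reported called 876 genes higher and 1555 lower in BHBNa_bIRI against bIRI, against 1 in all with the compared groups only (4495 at an unadjusted p of 0.05), 2 with the offsets (4695), and 0 against 1.5-fold (3057), without Sham replicate 1 (5566), without Sham replicate 2 (5307) or without BHBNa_bIRI replicate 1 (4676). It called 1 without BHBNa_bIRI replicate 3, 327 higher and 699 lower without Sham replicate 3, 256 and 538 without bIRI replicate 3, 472 and 682 without BHBNa_bIRI replicate 2, and 4183 and 4198 without bIRI replicate 1. DESeq2 called 2012 higher and 2495 lower, and all 9 tables, with the averaged bIRI table taken as a library, gave 2724 and 3123. In bIRI against Sham the 3396 higher and 2907 lower became 1831 and 1540 against 1.5-fold, 2118 and 2062 without Sham replicate 1, and 2088 and 2104 without Sham replicate 2. In BHBNa_bIRI against Sham the 3829 and 3997 became 2211 and 2314 against 1.5-fold. Upper-quartile factors moved the median of all genes to 0.17 from 0.08 in bIRI against Sham and to 0.13 from 0.04 in BHBNa_bIRI against Sham. The cause of these changes was not tested.

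With the replicate number as a block, 0 of the 9 were called in BHBNa_bIRI against bIRI (Slc9a3 -1.09, adjusted p = 0.086) and 0 over all genes (5270 at an unadjusted p of 0.05), and with the block and offsets together also 0 (Slc9a3 -0.80, adjusted p = 0.162; 3800). Under the block alone, Glul and Car4 differed by 0.073 each and Rhcg by 0.092 in that comparison, and under the block with offsets Slc4a4 differed by 0.18 and Glul by 0.16, and Car2 by 0.11 in bIRI against Sham.

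Differences near 0 changed sign. In BHBNa_bIRI against bIRI, Glul was 0.011 with DESeq2 and with RLE factors, 0.025 with upper-quartile factors, 0.017 with the scaling that left out abundant genes, 0.021 with all 9 tables, 0.0049 with no filter and 0.091 with the offsets, and it ran from -0.47 to 0.73 over single libraries left out. Car4 was 0.0042 with DESeq2 and with RLE factors, 0.026 with the scaling that left out abundant genes, 0.025 with no filter and 0.013 with all 9 tables, and ran from -0.38 to 0.58. In bIRI against Sham, Slc9a3 was 0.074 with upper-quartile factors and 0.039 with the 1 CPM filter (-0.41 to 0.21 over single libraries left out), Car2 was 0.17 with the offsets (-0.35 to 0.0073), and Atp6v1b1 was 0.083 with the offsets (-2.19 to 0.34). Car15 was -0.097 with the offsets in BHBNa_bIRI against Sham (-0.083 to 0.66). Leaving out single libraries also turned Car15 (-0.086 to 1.78) in bIRI against Sham and, in BHBNa_bIRI against bIRI, Slc4a4 (-1.03 to 0.20), Glud1 (-0.73 to 0.40), Car2 (-0.34 to 0.077), Car15 (-1.60 to 0.28), Atp6v1b1 (-2.20 to 0.34), Pck1 (-0.94 to 0.089), Rhcg (-0.80 to 1.02) and Slc4a1 (-3.56 to 1.80). Of the list genes called, 14 of 28 kept their call in every alternative in bIRI against Sham, 19 of 32 in BHBNa_bIRI against Sham and 0 of 7 in BHBNa_bIRI against bIRI. With only 2 bIRI libraries, leaving out 1 leaves a lone library that is assumed to vary like the other groups. Depth limits Car15 most, with counts of 16 to 116.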
